A study of Mus musculus with 4 samples.

Results

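The 8 genes described here encode the lipid-sensing nuclear receptors of the PPAR and LXR families and their obligate dimer partners, the RXRs. They are *Pparg*, *Ppara* and *Ppard*, *Rxra*, *Rxrb* and *Rxrg*, and *Nr1h3* and *Nr1h2*, which encode LXRα and LXRβ. They were chosen by name among the 22463 gene symbols in the files, by the RefSeq identifier of each row. Both transcripts listed for *Pparg* were read, and each other gene was represented by its transcript with most reads over all libraries.

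mRNA was measured by RNA-Seq in immortalized brown preadipocytes, precursors of brown fat cells, with 1 library for each of 4 conditions. The cells came from C57BL/6J E18.5 embryos, carried *Mll3*-/- and floxed *Mll4* alleles (f/f), and had been immortalized with SV40T. Ad-GFP cells were infected with an adenovirus expressing green fluorescent protein and by genotype lack MLL3 only, although their labels call them WT, whereas Ad-Cre cells were infected with an adenovirus expressing Cre, which deletes *Mll4*, and lack both H3K4 methyltransferases. Day 0 is confluent preadipocytes, and day 2 follows 2 days of an adipogenic cocktail of insulin, T3, indomethacin, dexamethasone and IBMX. Values under Ad-GFP or under Ad-Cre are those of the cells so infected, and pairs of values are given with day 0 first. The sources used here do not say whether the immortalized cells were a pool or a clone.

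PPARs and LXRs bind DNA as heterodimers with an RXR, at paired half-sites whose spacing differs between PPAR and LXR dimers. PPARγ, which responds to fatty acid derivatives, is the central transcription factor of adipocyte differentiation and switches on lipid storage genes. PPARα and PPARδ mainly drive fatty acid oxidation. LXRs respond to oxysterols and switch on cholesterol efflux and fatty acid synthesis. RXRs also pair with receptors for retinoic acid, thyroid hormone and vitamin D.

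The upstream sequences of *Pparg* and *Rxra* are shown because the reads on these genes carry most of what follows. They are the 250 bases before RefSeq transcription starts, from a table on GRCm38.p6, and their mm9 positions come from an exact match of the letters to the NCBI37/mm9 genome, 5′ to 3′ on the plus strand, with CpG dinucleotides in capitals. The first start of *Pparg*, at chr6:115310912-115311161, lies just before the annotated gene, upstream of the exon that begins the longer transcript. The other start shown, chr6:115371834-115372083, lies inside an intron and abuts the exon that begins the shorter transcript, which encodes PPARγ2. The *Rxra* window, chr2:27532471-27532720, lies inside the annotated gene, outside its exons.

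Pparg, first start: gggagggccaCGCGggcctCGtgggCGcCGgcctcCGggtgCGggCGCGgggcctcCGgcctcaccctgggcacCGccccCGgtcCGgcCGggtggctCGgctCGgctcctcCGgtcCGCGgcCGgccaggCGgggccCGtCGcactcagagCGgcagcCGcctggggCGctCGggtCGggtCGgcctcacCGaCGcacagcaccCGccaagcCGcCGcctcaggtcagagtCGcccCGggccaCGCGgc
Pparg, start of the PPARγ2 transcript: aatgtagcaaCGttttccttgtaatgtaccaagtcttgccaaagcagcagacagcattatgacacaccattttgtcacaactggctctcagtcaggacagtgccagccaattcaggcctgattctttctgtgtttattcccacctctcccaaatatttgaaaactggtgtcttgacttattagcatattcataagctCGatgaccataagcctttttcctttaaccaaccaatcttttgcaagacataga
Rxra, first start: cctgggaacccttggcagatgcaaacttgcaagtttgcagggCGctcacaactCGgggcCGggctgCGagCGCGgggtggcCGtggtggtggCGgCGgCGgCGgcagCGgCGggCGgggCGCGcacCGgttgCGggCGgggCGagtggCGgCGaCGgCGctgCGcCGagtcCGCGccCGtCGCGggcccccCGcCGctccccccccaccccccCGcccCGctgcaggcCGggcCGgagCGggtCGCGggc

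These windows differ in base composition. The first *Pparg* window holds 38 CpGs at 82.4% GC and the *Rxra* window 40 at 81.2%, and 98.1% and 98.7% of the 32841 RefSeq promoter windows in the table hold fewer. The window before the PPARγ2 start holds 2 CpGs at 40.8% GC, and 18.8% of windows hold fewer. The half-site AGGTCA, searched on both strands, occurs 1 time in the first *Pparg* window and in 14.0% of all windows. The C/EBP-type letters TTNCNNAA occur 2 times before the PPARγ2 start and in 36.9% of all windows. No pair of half-sites 1 base or 4 bases apart (AGGTCANAGGTCA or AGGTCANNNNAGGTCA) occurs in any of the 14 windows found for the 8 genes. These exact letters occur in 0.0335% and 0.0152% of all windows.

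The deposited counts summed to between 15831915 and 22099995 per library, and 3 reads on a transcript of 1 kb corresponded to 0.131 to 0.174 RPKM, the read count scaled by exon length and library size. Genes were taken as expressed where either Ad-GFP library passed 1 RPKM, which held for 11827 genes, and calls were ratios past 2.5-fold. A gene above 1 RPKM with Ad-Cre alone was left out, so this rule favours genes lower with Ad-Cre over genes higher with it. No condition has a replicate, so no test between conditions was possible. The 95% intervals are exact binomial intervals of the ratio of reads, cover counting error only, and compare these libraries, not the conditions. Of the markers, 6 of 8 brown preadipocyte and adipocyte genes passed 1 RPKM in some library, while *Ucp1* stayed under 1 RPKM and *Cidea* was at 0, so the day 2 cells did not show these thermogenic markers. None of the 4 macrophage or 4 endothelial markers did so, nor any of the 5 muscle markers except *Des*, at 1.26 RPKM in Ad-Cre cells at day 2. Summed fibroblast markers (*Col1a1*, *Col1a2* and *Thy1*) stood at 1790 and 129 RPKM under Ad-GFP at day 0 and day 2, and at 1595 and 311 under Ad-Cre. The preadipocyte markers *Dlk1* and *Pdgfra* already differed at day 0, with 141 and 73.6 RPKM under Ad-GFP against 10.1 and 9.72 under Ad-Cre, the same direction as *Pparg* at that day. *Ebf2* and *Zic1* were lower by less than 2.5-fold (−1.02 and −1.15 on the log2 scale), whereas *Pdgfrb* and *Prdm16* were at 0.45 and 0.32. The part of these markers in the results was not tested, and in bulk RNA fewer cells of a type and less RNA per cell cannot be told apart. Reads on whole *Mll4* (*Kmt2d*) numbered 6304 and 8530 under Ad-GFP and 6316 and 5595 under Ad-Cre at day 0 and day 2, and cannot show a loss of the few floxed exons. *Mll3* (*Kmt2c*) had 522 and 1224 reads under Ad-GFP and 463 and 451 under Ad-Cre (1.80, 3.17, 1.41 and 1.49 RPKM), so it was counted as expressed despite the *Mll3*-/- genotype and was 2.13-fold lower in Ad-Cre cells at day 2. The paper made the *Mll3* knockout with a gene trap vector inserted within the gene. Counts per whole transcript do not show on which exons the *Mll3* and *Mll4* reads lie.

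*Pparg* had the largest difference between Ad-Cre and Ad-GFP cells at day 2 among the 8 receptors. *Pparg* lies on chromosome 6 from 115311239 to 115440419, plus strand. Its transcript with most reads, NM_001127330, had 105 reads (3.29 RPKM) in the day 0 library of Ad-GFP cells and 1645 (38.5 RPKM) in the day 2 library. In Ad-Cre cells it had 36 reads (0.994 RPKM) at day 0 and 252 (7.53 RPKM) at day 2. The Ad-GFP library at day 2 therefore stood above the other 3, and the Ad-Cre library at day 0 below them. *Pparg* rose 11.7-fold in Ad-GFP cells, a log2 ratio of 3.55 (95% interval 3.27 to 3.85). The rise in Ad-Cre cells was 7.57-fold, or 2.92 (2.41 to 3.47). Ad-Cre cells had 3.31-fold less *Pparg* mRNA already at day 0, a log2 ratio of −1.73 (−2.31 to −1.17), and 5.12-fold less at day 2, −2.36 (−2.55 to −2.16). The 2.5-fold cutoff lies inside the day 0 interval, which rests on 36 and 105 reads. The rise was thus smaller in Ad-Cre cells by 0.63 on the log2 scale, and the interval of that difference, −1.23 to −0.0071, reached close to 0.

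The counts did not separate the *Pparg* transcripts. NM_011146, whose first exon encodes the start of PPARγ2, had 94 and 1610 reads under Ad-GFP and 35 and 245 under Ad-Cre at day 0 and day 2, or 89.5%, 97.9%, 97.2% and 97.2% of those on NM_001127330. In the mm9 annotation they share 6 exons of 1642 bases, while 2 exons of 215 bases belong to NM_001127330 alone and 1 exon of 127 bases, chr6:115372084-115372210, to NM_011146 alone. Nearly all reads were therefore counted on both rows, and the counts differed by 11 and 35 reads under Ad-GFP and by 1 and 7 under Ad-Cre. With NM_011146 in place of the other row the log2 Ad-Cre/Ad-GFP ratios were −1.61 at day 0 and −2.37 at day 2. Levels from the CpG-rich and the CpG-poor start shown above cannot be compared from these files.

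The other PPAR genes behaved differently from *Pparg* and from each other. *Ppard* (NM_011145, chromosome 17, 28369699 to 28438414) had 40.1 and 42.1 RPKM under Ad-GFP and 31.1 and 34.1 under Ad-Cre at day 0 and day 2, from 2222, 3116, 1954 and 1976 reads. No contrast came near 2.5-fold, and the Ad-GFP libraries were the higher pair at both days, with log2 Ad-Cre/Ad-GFP ratios of −0.37 (−0.46 to −0.28) and −0.31 (−0.39 to −0.22). *Ppara* (NM_011144, chromosome 15, 85565413 to 85633249) stayed below 1 RPKM in every library and was not counted as expressed. It had 6 and 93 reads under Ad-GFP and 12 and 38 under Ad-Cre at day 0 and day 2, or 0.0469, 0.543, 0.0826 and 0.283 RPKM. Its log2 ratio of day 2 to day 0 was 3.54 (2.36 to 5.02) under Ad-GFP and 1.78 (0.81 to 2.85) in Ad-Cre cells, so that both day 2 libraries stood above both day 0 libraries.

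The makeup of the PPAR family by mRNA differed between the libraries. *Pparg* was 7.57% of the summed RPKM of *Pparg* and *Ppard* at day 0 (6.25% to 9.06%) and 47.8% at day 2 under Ad-GFP (46.3% to 49.3%). In Ad-Cre cells it was 3.09% (2.18% to 4.25%) and 18.1% (16.2% to 20.1%). *Ppard* thus remained the main PPAR mRNA in Ad-Cre cells at day 2, while both genes were close to level in Ad-GFP cells. Such shares are taken inside 1 library and do not depend on how libraries are scaled against each other. They do carry the trend of ratios over GC content given further on. The RPKM of the 3 PPAR genes summed to 43.5 and 81.2 under Ad-GFP and 32.2 and 41.9 under Ad-Cre at day 0 and day 2.

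**Figure D1:**
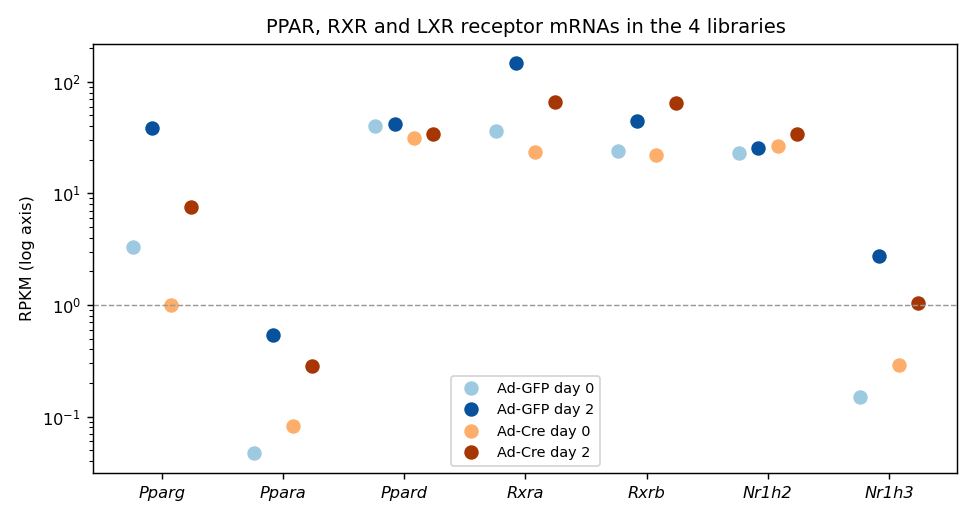
RPKM (log axis) of each receptor gene in the 4 libraries, 1 point per library, with a dashed line at 1 RPKM. *Rxrg*, at 0 in all libraries, is not drawn, *Pparg* spans 0.994 to 38.5 RPKM, and *Ppard* and *Nr1h2* keep their 4 points close together.

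*Rxra*, the RXR partner with most reads, rose in both kinds of cells, and its day 2 level was lower in Ad-Cre cells. *Rxra* (NM_011305, chromosome 2, 27531960 to 27618477) had 3291 reads (36.3 RPKM) in the day 0 library of Ad-GFP cells and 17646 (145.8 RPKM) in the day 2 library. In Ad-Cre cells it had 2426 (23.6 RPKM) and 6214 (65.4 RPKM). Both day 2 libraries exceeded both day 0 libraries, and at each day the Ad-GFP library was the higher one. The rise was 4.01-fold in Ad-GFP cells, a log2 ratio of 2.00 (1.95 to 2.06), and 2.77-fold in Ad-Cre cells, 1.47 (1.40 to 1.54). Ad-Cre cells had 1.54-fold less *Rxra* mRNA at day 0 and 2.23-fold less at day 2, with log2 ratios of −0.62 (−0.70 to −0.55) and −1.16 (−1.20 to −1.11). The day 2 difference stayed under the 2.5-fold cutoff. The rise was smaller in Ad-Cre cells by 0.53 on the log2 scale (−0.62 to −0.45).

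*Rxrb*, which encodes the broadly expressed RXRβ, passed 2.5-fold from day 0 to day 2 with Ad-Cre and not with Ad-GFP, a call lost once the trend of ratios over transcript length and GC content, given further on, was divided out. *Rxrb* (NM_001205214, chromosome 17, 34168757 to 34175338) had 1077 and 2688 reads under Ad-GFP and 1143 and 3061 under Ad-Cre at day 0 and day 2, or 23.8, 44.4, 22.2 and 64.5 RPKM. The Ad-Cre library at day 2 was the highest of the 4 and the day 0 libraries lay side by side. The rise was 1.87-fold in Ad-GFP cells, a log2 ratio of 0.90 (0.80 to 1.00), and 2.90-fold in Ad-Cre cells, 1.53 (1.44 to 1.63). At day 2 its log2 Ad-Cre/Ad-GFP ratio was 0.54 (0.46 to 0.61), and at day 0 the interval included no difference (−0.22 to 0.025). With that trend divided out, the day 2 ratio was 0.00 and the rise in Ad-Cre cells 1.02. The other 3 *Rxrb* transcripts in the files had 21.8 to 65.7 RPKM in the same order of libraries. *Rxrg*, the RXR gene best known from muscle and brain, had no read in any library on either of its 2 transcripts (NM_001159731 and NM_009107). On the annotated *Rxrg* transcripts, 3 reads would have given 0.0619 to 0.107 RPKM, an upper limit for counting error only.

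Within a library, *Rxra* and *Rxrb* can be compared per length without scaling between libraries. Their transcripts differ in GC content (57.0% and 61.5%), so these shares carry the GC trend given further on. *Rxra* was 60.4% of their summed RPKM at day 0 (58.8% to 62.1%) and 76.6% at day 2 under Ad-GFP (75.9% to 77.4%). In Ad-Cre cells it was 51.5% (49.7% to 53.3%) and 50.4% (49.3% to 51.5%). *Rxra* thus exceeded *Rxrb* by 3.28-fold in Ad-GFP cells at day 2, whereas in Ad-Cre cells neither day gave a ratio whose interval excluded 1 (1.06 and 1.01). The ratio of *Rxra* to *Pparg* was 11.1 and 3.78 under Ad-GFP and 23.8 and 8.69 under Ad-Cre at day 0 and day 2, so RXRα mRNA was in excess of PPARγ mRNA in every library. The RXR genes summed to 60.1 and 190.2 RPKM under Ad-GFP and 45.9 and 129.9 under Ad-Cre. Their sum was 0.900 and 1.74 times that of the PPAR and LXR genes together in Ad-GFP cells, and 0.776 and 1.69 times in Ad-Cre cells.

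**Figure D2:**
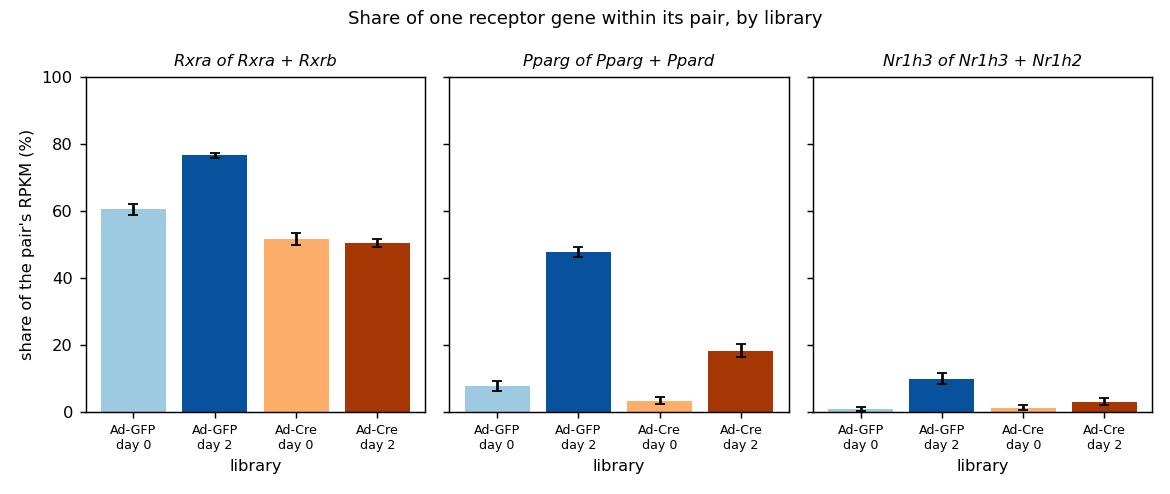
Share (%) of *Rxra*, *Pparg* and *Nr1h3* in the summed RPKM of each pair of genes, by library, with exact 95% counting intervals. The share is highest in Ad-GFP cells at day 2 in each panel, at 76.6%, 47.8% and 9.68%.

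The LXR genes were unequal in level and in change. *Nr1h2* (LXRβ, NM_009473, chromosome 7, 51804986 to 51809321, minus strand) had 783 and 1153 reads under Ad-GFP and 1020 and 1205 under Ad-Cre at day 0 and day 2, or 23.2, 25.6, 26.6 and 34.0 RPKM. None of its contrasts reached 2.5-fold, and the largest was a log2 Ad-Cre/Ad-GFP ratio at day 2 of 0.41 (0.30 to 0.53). *Nr1h3* (LXRα, NM_013839, chromosome 2, 91024218 to 91042991, minus strand) had 5 and 123 reads under Ad-GFP and 11 and 37 under Ad-Cre, or 0.149, 2.74, 0.288 and 1.05 RPKM. Both day 2 libraries stood above both day 0 libraries, which lay at or near the limit of detection.

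*Nr1h3* rose 18.4-fold in Ad-GFP cells, a log2 ratio of 4.20 (2.94 to 5.85), and 3.64-fold in Ad-Cre cells, 1.86 (0.86 to 2.98). At day 2 it was 2.61-fold lower in Ad-Cre cells, −1.38 (−1.95 to −0.84), and at day 0 the interval of −0.69 to 2.83 included no difference. The day 2 call of *Nr1h3* held only narrowly, since the 2.5-fold cutoff is inside its interval and trimmed mean (TMM) scaling of the libraries put it at −1.20, under the cutoff. *Nr1h3* made up 0.637% of the RPKM of both LXR genes at day 0 and 9.68% at day 2 under Ad-GFP, and 1.07% and 2.99% under Ad-Cre. LXRβ mRNA was therefore the main LXR mRNA in all 4 libraries.

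Read by contrast, 3 of the 6 expressed receptors passed 2.5-fold upward from day 0 to day 2 in Ad-GFP cells (*Pparg*, *Rxra* and *Nr1h3*), beside 8.43% of the 11827 expressed genes. In Ad-Cre cells 4 of 6 did, the same 3 and *Rxrb*, beside 8.68%. Of these 4, *Rxrb* fell below the cutoff with the length and GC trend divided out, and *Nr1h3* with a pseudocount of 1 RPKM or with the interval bound required to pass it. No receptor passed it downward, beside 12.6% and 10.0% of expressed genes. At day 0 only *Pparg* was over 2.5-fold lower with Ad-Cre than with Ad-GFP, beside 4.12% of genes. At day 2 *Pparg* and *Nr1h3* were, beside 10.1%, and no receptor was over 2.5-fold higher at either day, beside 1.26% and 8.17%. The median log2 ratio of the 6 was 1.45 and 1.50 for day 2 over day 0 in Ad-GFP and Ad-Cre cells, and −0.23 and −0.73 for Ad-Cre over Ad-GFP at day 0 and day 2. Over all expressed genes these medians were 0.15, −0.01, −0.02 and −0.16. The 4 contrasts share libraries pairwise and are not independent of each other.

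**Figure D3:**
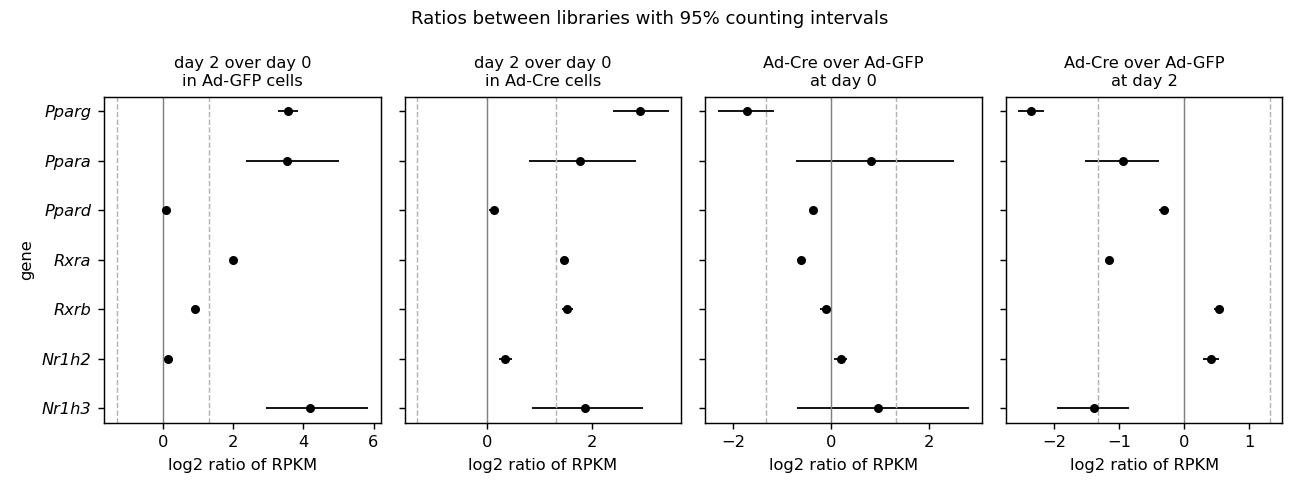
Log2 ratio of RPKM of each receptor gene in the 4 contrasts, with exact 95% counting intervals (bars) and dashed lines at 2.5-fold. The scales differ between panels, *Pparg* lies past the line in each of them, and *Ppara* is drawn although it stayed below 1 RPKM.

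The order of levels also changed. In Ad-GFP cells at day 0 it ran *Ppard*, *Rxra*, *Rxrb*, *Nr1h2*, *Pparg*, *Nr1h3*, *Ppara*, and the neighbours *Rxrb* and *Nr1h2* (ratio 1.03, 0.934 to 1.13) and *Nr1h3* and *Ppara* did not differ beyond counting error. At day 2 it ran *Rxra*, *Rxrb*, *Ppard*, *Pparg*, *Nr1h2*, *Nr1h3*, *Ppara*. In Ad-Cre cells at day 0 the order was *Ppard*, *Nr1h2*, *Rxra*, *Rxrb*, *Pparg*, *Nr1h3*, *Ppara*, with *Rxra* and *Rxrb* not separated (0.989 to 1.14). At day 2 it was *Rxra*, *Rxrb*, *Ppard*, *Nr1h2*, *Pparg*, *Nr1h3*, *Ppara*, with neither *Rxra* and *Rxrb* (0.972 to 1.06) nor *Ppard* and *Nr1h2* (0.931 to 1.08) separated. *Pparg* lay above 23.0% of expressed genes at day 0 and 87.9% at day 2 under Ad-GFP, and above 7.06% and 47.6% under Ad-Cre. *Rxra* lay above 87.8% and 98.5% under Ad-GFP and above 79.5% and 93.5% in Ad-Cre cells.

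Among 49 nuclear receptor genes, *Rxra* ranked 5 by RPKM at day 0 and 1 at day 2 under Ad-GFP. In Ad-Cre cells it ranked 7 and 3, behind the orphan receptors *Nr2f6* (136 RPKM) and *Nr2f1* (88.2 RPKM) at day 2. *Pparg* ranked 19 and 7 under Ad-GFP and 23 and 16 under Ad-Cre. *Rxra* alone made up 8.08% and 21.7% of the summed RPKM of the 49 genes in Ad-GFP cells at day 0 and day 2, and 5.59% and 9.33% in Ad-Cre cells. The 8 receptors together made up 28.2% and 44.6% under Ad-GFP and 24.9% and 29.5% in Ad-Cre cells.

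The ratios between genotypes moved with the GC content of transcripts at day 2. With expressed genes in 5 equal bins by GC content, the lowest bin (median 42.3%) had a median log2 Ad-Cre/Ad-GFP ratio of −0.66 at day 2 and the highest bin (58.5%) 0.48, while at day 0 the same bins had 0.05 and −0.01. *Pparg* transcripts have 46.0% GC, *Rxra* 57.0%, *Nr1h3* 57.6%, *Ppard* 59.5%, *Nr1h2* 60.6% and *Rxrb* 61.5%, against a median of 50.6%. After the trend over transcript length and GC content was divided out, the day 2 log2 ratio was −2.06 for *Pparg*, −1.06 for *Rxra* and −1.90 for *Nr1h3*. It was −0.71 for *Ppard*, 0.00 for *Rxrb* and −0.34 for *Nr1h2*. The lower levels of *Pparg*, *Rxra*, *Nr1h3* and *Ppard* in Ad-Cre cells at day 2 therefore kept their direction, and that of *Ppard* went from −0.31 to −0.71. The higher level of *Rxrb* was lost and the direction for *Nr1h2* was turned. Shares within a library do not depend on scaling but carry this trend too.

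**Figure D4:**
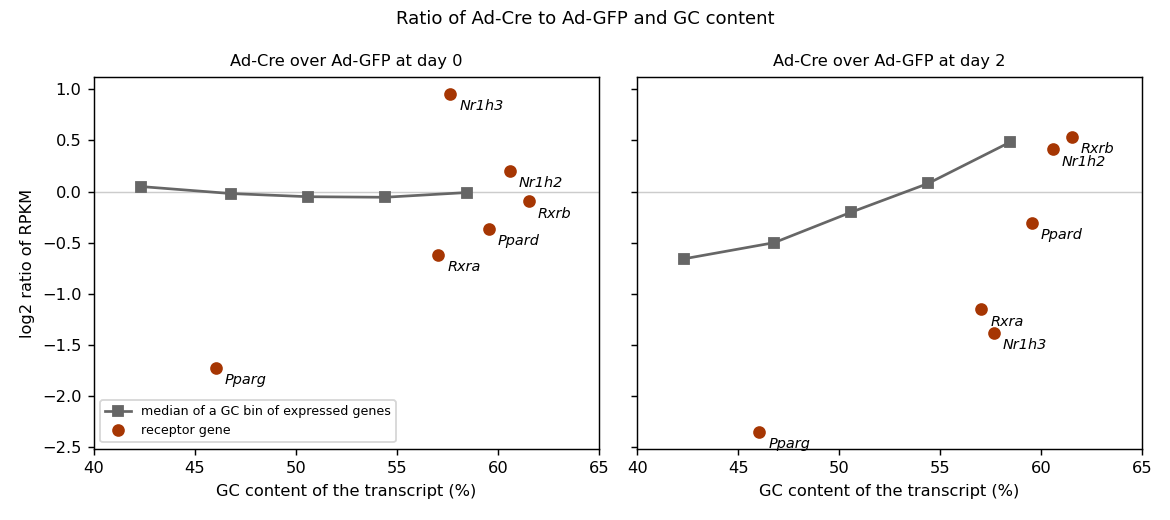
Log2 ratio of RPKM, Ad-Cre over Ad-GFP, against the GC content of the transcript (%), at day 0 (left) and day 2 (right). Grey squares are medians of 5 equal bins of expressed genes by GC content, rising from −0.66 to 0.48 at day 2. The points of the 6 expressed receptors at day 2 show *Rxrb* and *Nr1h2* near that line and *Pparg*, *Rxra*, *Nr1h3* and *Ppard* below it.

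The genes whose levels followed a receptor most closely were ranked by the Euclidean distance of log2(RPKM + 0.1), centred over the 4 libraries, among 10907 genes. For *Pparg* these were *Selenop* (distance 0.173, with 4.90, 55.6, 1.69 and 10.5 RPKM in Ad-GFP cells at day 0 and day 2 and Ad-Cre cells at day 0 and day 2), *Tspan18*, *Peli2*, *Fgfr2* and *Xdh*. For *Rxra* they were the growth factor receptor gene *Fgfr1* (0.141, with 45.2, 177.5, 26.5 and 83.8 RPKM), *Mttp* and *Glcci1*. For *Nr1h3* they were *Map3k5*, *Reep6* and *Arl4a*, for *Rxrb* *Alkbh2*, *Nrm* and *Dxo*, for *Ppard* *Spcs2*, *4930430F08Rik* and *Hp1bp3*, and for *Nr1h2* *Pigs*, *Zswim6* and *Tmbim4*. With 4 libraries many genes share any such pattern, so the likeness is a description only.

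Genes commonly described as PPARγ targets moved in the same directions as *Pparg*, apart from day 0. Of 22 genes on the list 19 were expressed. From day 0 to day 2 in Ad-GFP cells 18 were over 2.5-fold up, beside 8.43% of all expressed genes, with a median log2 ratio of 6.10. In Ad-Cre cells 15 of 19 were, beside 8.68%, with a median of 4.28. With *Retn*, which had no read at day 0, placed at the bound set by 3 reads, these medians were 5.94 and 3.85. At day 2, 18 of 19 were over 2.5-fold lower with Ad-Cre than with Ad-GFP, beside 10.1% of all expressed genes, with a median of −1.96. The exception was *Me1*, which encodes malic enzyme, at −0.72 (57.7% of its 50-base windows match elsewhere in the genome). Among the 18, *Aqp7* (1.41 RPKM) and *Retn* (4.11 RPKM) passed 1 RPKM only in Ad-GFP cells at day 2. They entered through the library in which they were high, so their calls against it are not independent of the rule. At day 0, 1 was higher with Ad-Cre (*Aqp7*, on 3 against 1 read, too few to read a direction from) and 1 lower (*Plin4*), beside 1.26% and 4.12%. A further 16 were within 2.5-fold and *Retn* had no read. The median was 0.17 and 7 of the 19 were below 0, while *Pparg* itself was 3.31-fold lower. Several rest on few reads, such as *Adipoq* (7 with Ad-Cre against 3), *Mgll* (5 against 9) and *Gpd1* (17 against 13). With more reads, *Cebpa* was 2.44-fold lower (381 against 818) and *Acsl1* was at 0.23 (461 against 346).

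*Fabp4*, the fatty acid carrier of adipocytes and the list's most abundant gene in Ad-GFP cells at day 2, had 46 and 13155 reads under Ad-GFP and 53 and 2575 under Ad-Cre at day 0 and day 2 (4.17, 892.8, 4.24 and 222.8 RPKM). The day 0 libraries did not differ beyond counting error, and at day 2 the log2 Ad-Cre/Ad-GFP ratio was −2.00 (−2.06 to −1.94). The ratio was −2.61 for *Acsl1* (acyl-CoA synthetase), −2.32 for the lipid droplet gene *Plin4* and −2.28 for adiponectin (*Adipoq*), the lowest of the list with at least 100 reads. It was −1.96 for *Cebpa*, −1.66 for *Mgll* and −1.63 for *Gpd1*. *Cidea*, *Pck1* and *Ucp1* did not reach 1 RPKM.

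Genes of fatty acid oxidation and other usual PPARα and PPARδ targets moved less. Of 24 genes 15 were expressed. In Ad-GFP cells 6 were over 2.5-fold higher and 1 (*Acot1*) lower at day 2 than at day 0, beside 8.43% and 12.6% of all expressed genes (median 1.12). The 6 include *Hadhb*, with 93.8% of its windows matching elsewhere, and *Fgf21*, on 27 against 3 reads. In Ad-Cre cells 2 (*Angptl4* and *Pdk4*) were higher, beside 8.68% (median 0.39). At day 0, 3 were over 2.5-fold lower with Ad-Cre, beside 4.12%, and of these *Pdk4* had 147 against 557 reads. *Acot1* has 52.5% of its windows matching elsewhere, and *Fgf21* had 1 read against 3, too few to read a direction from. At day 2, 6 were over 2.5-fold lower with Ad-Cre than with Ad-GFP and none higher, beside 10.1% and 8.17% of all expressed genes (median −0.84). *Fgf21*, 1 of them, passed 1 RPKM only in Ad-GFP cells at day 2 (1.24 RPKM), so it entered through the library in which it was high. *Angptl4*, a secreted inhibitor of lipoprotein lipase, had a log2 ratio of −2.56. *Acot2*, at −2.06, has 43.0% of its windows matching elsewhere and its reads are uncertain. The mitochondrial genes *Hadha*, *Acadvl* and *Slc25a20*, the highest of the list with at least 100 reads, had −0.44, −0.39 and −0.08. Lower mitochondrial genes were *Acadl* at −1.66 (450 against 1817 reads), *Cpt2* at −0.71 and *Cpt1a* at −0.69. *Acadm* was at −0.84, with 48.8% of its windows matching elsewhere.

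LXR target genes were mixed. Of 16 genes 11 were expressed. From day 0 to day 2 in Ad-GFP cells, 4 were over 2.5-fold higher (*Abca1*, *Apoe*, *Mlxipl* and *Srebf1*), beside 8.43% of all expressed genes. Another 3 were over 2.5-fold lower (*Pltp*, *Scd2* and *Smpdl3a*), beside 12.6%, and the median of the 11 was 0.72. *Mlxipl* had no read in the day 0 library of Ad-GFP cells and 144 at day 2. In Ad-Cre cells 3 were higher (*Abca1*, *Apoe* and *Mlxipl*) and 2 lower (*Scd2* and *Smpdl3a*, median 0.27), beside 8.68% and 10.0%. At day 0, *Abca1* and *Apoe* were over 2.5-fold lower with Ad-Cre, beside 4.12%, and *Mlxipl* had 2 reads against 0, which gives no fold. At day 2, 3 were over 2.5-fold lower with Ad-Cre than with Ad-GFP and 1 higher (median −1.08). Of all expressed genes 10.1% were lower and 8.17% higher, so 1 of 11 higher is near that share. The cholesterol exporter *Abca1* had 567 reads with Ad-Cre against 6504 with Ad-GFP (log2 ratio −3.17, −3.30 to −3.05), and it was also 4.07-fold lower at day 0. *Mlxipl*, which encodes the lipogenic factor ChREBP, was at −2.30 and the desaturase gene *Scd1* at −2.02. *Mlxipl* passed 1 RPKM only in Ad-GFP cells at day 2 (1.72 RPKM), so it entered the counts through the library in which it was high. *Srebf1* and *Scd2*, the most abundant with *Scd1*, were at −1.08 and −0.63, and fatty acid synthase (*Fasn*) at −0.26. *Mylip* was at 0.43, and the phospholipid transfer protein gene *Pltp* at 1.68 was the gene over 2.5-fold higher.

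**Figure D5:**
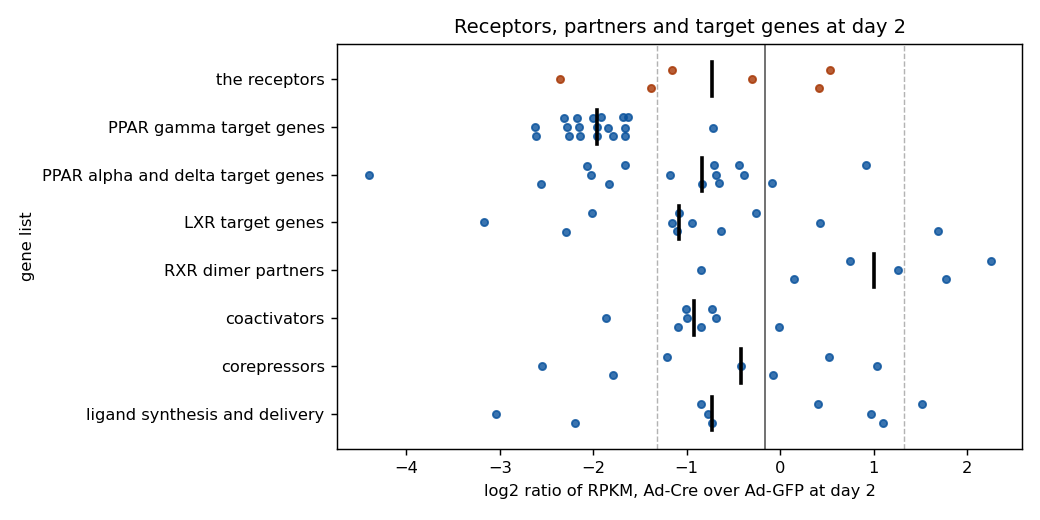
Log2 ratio of RPKM, Ad-Cre over Ad-GFP at day 2, of each expressed gene (points) of the receptors and 7 gene lists, with the list median (black bar), the median of all expressed genes (grey line, −0.16) and dashed lines at 2.5-fold. The PPARγ target genes sit between −2.62 and −1.63 except for *Me1*, and the RXR dimer partners have a median above 0, all without the length and GC trend divided out.

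The other receptors that pair with RXR were mixed. Of 11 genes 6 were expressed, and at day 2, 2 were over 2.5-fold higher with Ad-Cre than with Ad-GFP and none lower, beside 8.17% and 10.1% (median 1.00). That median is given without the length and GC trend divided out. The vitamin D receptor gene *Vdr* had 33.1 RPKM with Ad-Cre and 6.92 with Ad-GFP at day 2, a log2 ratio of 2.26 (2.14 to 2.38), although it had been lower in Ad-Cre cells at day 0 (7.42 against 15.8 RPKM). *Nr4a1* was at 1.78 and the retinoic acid receptor gene *Rarg* at 1.26. *Nr4a2* and *Rara* were at 0.75 and 0.15. The thyroid hormone receptor gene *Thra*, the second most abundant of the 49 receptors in Ad-GFP cells at day 2, had the same sign as *Rxra* in all 4 contrasts, with log2 ratios of 1.40 and 1.43 for day 2 over day 0 under Ad-GFP and Ad-Cre and of −0.87 and −0.85 for Ad-Cre over Ad-GFP at day 0 and day 2. Over the 41 other nuclear receptor genes, 17 were expressed. At day 2, 3 were over 2.5-fold higher (*Vdr*, *Nr4a1* and *Nr2f1*) and 3 lower in Ad-Cre cells (*Nr1d2*, *Nr2c2* and *Rora*, median −0.38), beside 8.17% and 10.1%. *Nr2f1* was at 1.94 and *Nr2f6* at 0.89, *Esrra* at −0.38 and *Nr2c1* at −1.04. *Nr1d2* (−1.91) and *Nr2c2* (−1.33) have 65.4% and 24.7% of windows matching elsewhere.

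Of 9 coactivator genes 8 were expressed, and at day 2 only *Ppargc1b*, a PPAR coactivator gene induced from 0.525 to 27.2 RPKM in Ad-GFP cells, was over 2.5-fold lower in Ad-Cre cells (7.49 RPKM, −1.86). That 1 of 8 is near the share of all expressed genes, 10.1%. The coactivator median was −0.92, and −0.18 once the length and GC trend was divided out. *Med1*, *Ncoa1*, *Ncoa3*, *Ep300* and *Crebbp* were at −1.09, −1.01, −0.73, −0.68 and −0.01. Of 7 corepressor genes *Nrip1* (RIP140) at −2.54 and *Tbl1x* at −1.79 were over 2.5-fold lower in Ad-Cre cells at day 2, beside 10.1% (median −0.42). *Nrip1* had 4.08 and 26.6 RPKM under Ad-GFP and 4.33 and 4.57 under Ad-Cre at day 0 and day 2. *Tbl1xr1* was at −1.21 and *Hdac3* at −0.08, and *Gps2* at 1.04 has 21.6% of windows matching elsewhere.

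Of 18 genes that make or carry receptor ligands 9 were expressed, and at day 2, 2 were over 2.5-fold lower in Ad-Cre cells and 1 higher (median −0.73), beside 10.1% and 8.17% of all expressed genes. *Cyp7b1* was not counted because it passed 1 RPKM with Ad-Cre at day 2 only, at 3.17 RPKM on 124 reads against 5 with Ad-GFP. *Xdh* was at −3.04 with 62 reads against 650. It passed 1 RPKM only in Ad-GFP cells at day 2 (6.16 RPKM), so it entered the counts through the library in which it was high. *Fabp5*, a fatty acid carrier that can deliver ligand to PPARδ, was at −2.20, with 65.8% of its windows matching elsewhere. *Ptgs1*, *Rdh10* and *Cyp46a1* were at −0.77, −0.73 and 0.97, *Crabp1* had 3.89 against 1.82 RPKM, and the prostaglandin synthase gene *Ptgs2* at 1.51 had 65 against 29 reads. At day 0, 4 of the 9 were over 2.5-fold lower with Ad-Cre and 2 higher, beside 4.12% and 1.26% of all expressed genes. The lower ones were the retinoic acid carriers *Crabp1* (−5.68) and *Crabp2* (−1.99, on 6 against 21 reads), *Ptgs1* (−4.14) and *Xdh* (−1.92, on 6 against 20 reads). The higher ones were *Ptgs2* at 1.41 and *Cyp26b1*, which encodes an enzyme that degrades retinoic acid, at 1.68.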

How the data were processed

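RNA-Seq of 4 libraries was analysed, 1 per condition. Alignment of the 50-base reads was to NCBI37/mm9, and reads on RefSeq exons were collected, per the study's methods. For each transcript, the authors deposited a raw whole-number read count and an RPKM. Recomputing showed that the RPKM divides by exon length and by the mapped reads the study lists. How reads with several matches were treated is not given in the sources used here. Per the submitters' processing notes, mm9, bedtools 2.16 and SICER 1.1 were used for the series, with no role stated.

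Symbols came from a RefSeq table of GRCm38.p6 (97.8% of 29082 transcripts), used for names alone. A gene was its transcript with most reads, and a transcript without a symbol was kept as a gene of its own. GENCODE vM1 on mm9 gave coordinates, exons and GC content, the latter for 92.0% of expressed genes. Exons of the 8 receptor genes overlap no other gene's exons. Windows of 50 bases, taken every 25 bases, were searched in mm9 with blastn 2.17.0, where a match elsewhere allowed at most 2 mismatches. At most 1.28% of windows of a receptor gene matched elsewhere. Ratios used the deposited RPKM. Exact 95% intervals were computed with scipy 1.17.1. edgeR 4.0.16 in R 4.3.3 gave TMM factors only. Scripts ran in Python 3.11.15 with pandas 2.3.3, numpy 2.4.6 and, for plots, matplotlib 3.10.9. The interval procedure was run on simulated counts that held counting error only, so that run cannot show how the intervals hold with spread between cultures. The length and GC trend was fitted as medians of 20 bins in 5 rounds and subtracted, with the median of all expressed genes.

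The 8 members and the 8 gene lists were chosen with earlier results of these data known. Genes named were the receptors, their nearest genes (5 for *Pparg*, 3 for the others, at least 100 reads in a library), per list the 3 lowest and 3 highest at day 2 with at least 100 reads in 1 library and the 3 most abundant in Ad-GFP cells at day 2, and the targeted genes. *Retn*, *Ucp1*, *Cidea*, *Pck1*, *Aqp7*, *Acot1*, *Pdk4*, *Fgf21*, *Hadhb*, *Acadl*, *Acadm*, *Cpt1a*, *Cpt2*, *Apoe*, *Smpdl3a*, *Rora*, *Cyp26b1*, *Cyp7b1*, *Crabp2*, *Dlk1*, *Pdgfra*, *Pdgfrb*, *Prdm16*, *Ebf2* and *Zic1* were named after their values were seen. The 12 alternatives were the denominator, TMM scaling, a pseudocount of 1 RPKM, cutoffs of 2-fold and 4-fold, the interval bound, expression thresholds (0.5 RPKM, none, any library), the mean over transcripts, the trend, and the other *Pparg* transcript. Values of some genes that this rule names are not reported here.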

Additional observations from a re-analysis of the deposited data

Results flagged for a closer look

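In 3 receptor genes the ratio of Ad-Cre to Ad-GFP had opposite signs at day 0 and day 2. The differences between the days were not tested, since each condition is 1 library. For *Nr1h3* the log2 ratio went from 0.96 at day 0 to −1.38 at day 2, a difference of −2.34 (95% counting interval −4.29 to −0.57), and the day 0 value rests on 5 and 11 reads. For *Ppara* it went from 0.82 to −0.94, a difference of −1.76 (−3.55 to −0.097), with 6 and 12 reads at day 0. For *Rxrb* it went from −0.10 to 0.54, a difference of 0.63 (0.49 to 0.78), which became 0.07 when the trend over transcript length and GC content was divided out. The counting interval of the day 0 ratio included 0 for all 3 genes.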

How the results depend on the processing

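No paired analysis was possible because each condition has 1 library, and no library could be left out. Of the counts of receptors past 2.5-fold, that of Ad-GFP cells from day 0 to day 2 stayed within 1.5 times under every alternative run. In Ad-Cre cells a cutoff of 4-fold left 1 (*Pparg*) of 4, and 3 were left by the length and GC trend (without *Rxrb*) and by a pseudocount of 1 RPKM or the interval bound (without *Nr1h3*). The day 0 count of 1 became 0 with a pseudocount of 1 RPKM, with a cutoff of 4-fold and with the interval bound required to pass the cutoff. The day 2 count of 2 became 1 (*Pparg*) under these 3 and with the sum of counts or TMM factors as scaling, which leave out *Nr1h3*. Dividing out the length and GC trend gave no value for *Ppara*, which is not expressed, and turned the difference between the rises of *Nr1h2* in Ad-Cre and Ad-GFP cells from 0.21 to −0.56. The smaller rise of *Rxra* ranged from −0.54 to −0.39 over the alternatives, and that of *Pparg* from −1.11 to −0.35. Scaling moved the median of all genes at day 2 from −0.16 to 0.02 (TMM). With 105 and 36 reads on *Pparg* and 5 and 11 on *Nr1h3* at day 0, depth limits the day 0 ratios, and without replicates the spread between cultures is unknown.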
